A study of Homo sapiens with 32 samples.

Results

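The genes ABAT, CD82 and TPMT were examined in chromatin immunoprecipitation sequencing (ChIP-seq) peak lists of the transcription factor HNF4α from 3 human pancreatic ductal adenocarcinoma cell lines. An antibody against the P1 form of HNF4α gave peaks in both ASPC1 lists with the P2 promoter repressed and in neither control list. The 3 genes lie at the strongest of these peaks. They were chosen by that contrast, so its values are given below as a description, with no test. A site at one of these loci is a merged set of overlapping peaks with a summit within 50 kb of the gene span. There were 27 such sites, 10 at ABAT, 13 at CD82 and 4 at TPMT, of 78729 merged regions in the 18 peak lists.

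The series has 32 libraries, and the 18 immunoprecipitated ones, which have a peak list each, form 9 groups of 2. The other 14 are input libraries and were not used here. Panc10.05 cells were given 25 ng/mL doxycycline to induce the isoform P1-α2 or 12.5 ng/mL to induce P2-α8, and the dose cannot be told apart from the isoform there. BxPC3 cells were given 500 ng/mL for either isoform. ASPC1 cells carried CRISPR interference (CRISPRi), which represses a promoter without cutting it, with the guide labels sgNC (control), sgP1 or sgP2. All 3 lines were precipitated with the antibody PP-H1415, called the pan antibody here because the labels give it for HNF4α without naming an isoform. ASPC1 sgNC and sgP2 cells were also precipitated with PP-K9218, labelled for HNF4α-P1. Nothing in the labels says whether the 2 libraries of a group came from separate cultures, so p-values measure only the spread between these libraries. Library names begin with a number of their own for each line, so the line and any batch this number stands for cannot be told apart.

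HNF4α is a nuclear receptor of liver, gut and pancreas epithelium. Transcripts start at either of its promoters, P1 or P2, and the resulting proteins share the DNA-binding domain but have different amino termini, where P1-specific antibodies bind. ABAT encodes the mitochondrial 4-aminobutyrate aminotransferase, which begins the breakdown of the neurotransmitter GABA. CD82 encodes a tetraspanin, a membrane protein that organises integrins and receptors and is known as a suppressor of metastasis. TPMT encodes thiopurine S-methyltransferase, the cytosolic enzyme that inactivates thiopurine drugs such as azathioprine and mercaptopurine.

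The lists held 12681 to 41808 peaks in Panc10.05 and BxPC3, 11686 to 24295 in ASPC1 with the pan antibody and 260 to 5200 with the P1 antibody. Their lowest −log10 q was 8.00 to 8.04 in Panc10.05 and BxPC3 and 2.00 to 2.02 in ASPC1. Sequencing depth is unknown, and the lists of the lines differ in cut-off and length. The strength of a peak is therefore given as its fold enrichment, the authors' linear ratio over background, and as its percentile by fold within its own list, where 100 is the strongest peak. Neither is compared as an amount between lists.

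Each locus had 1 leading site, the one that led to its choice. The ABAT leading site, chr16:8673845-8675114, was a promoter site. ABAT lies on the plus strand at chr16:8674617-8784570 (gene ID 18), and the summits lay at -258 to -113 bp from its 5′ end, where negative values are upstream. The CD82 leading site, chr11:44600877-44602249, lay 37.1 kb inside the gene span, which is chr11:44564409-44620358 on the plus strand (gene ID 3732). The TPMT leading site, chr6:18146920-18147927, lay 7.78 kb inside the gene span, which is chr6:18128311-18155169 on the minus strand (gene ID 7172). Exons and introns were not analysed here, so a position inside a gene span is not assigned to either. Coordinates are GRCh38 (hg38).

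The RefSeq table of promoter windows, 250 bases before to 50 bases after a start, matched all 3 genes, with 4 windows for ABAT, 1 for CD82 and 2 for TPMT. Peaks overlapped 1 of these 7 windows, the first ABAT window, in 16 of 18 lists, and in 15 of these the summit lay inside it. Its sequence is shown because it is the one window of the 3 genes with binding, at chr16:8674367-8674666 on the plus strand of GRCh38.p14. The capitals mark the nearest match to the HNF4-type motif CAAAGTCCA, which reads CAGAGTCCA on the opposite strand and carries the substitution A3G, counted from the 5′ end of the motif.

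ABAT promoter: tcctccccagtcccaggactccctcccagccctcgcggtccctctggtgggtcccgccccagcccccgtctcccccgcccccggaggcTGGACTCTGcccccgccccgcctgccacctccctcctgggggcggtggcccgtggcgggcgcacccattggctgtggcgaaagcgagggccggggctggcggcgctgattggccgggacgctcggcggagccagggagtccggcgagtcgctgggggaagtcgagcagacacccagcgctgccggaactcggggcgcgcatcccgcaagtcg

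This window was 76.3% G or C with 32 CpG pairs, and 92.6% of the 35116 promoter windows in the table had a lower G and C share (median 58.7%). It held no exact CAAAGTCCA and, on either strand, no CAAAGGTCA, a nuclear receptor repeat, even with 1 mismatch. Over all windows an exact CAAAGTCCA was found in 0.384% and one with at most 1 mismatch in 6.97%; for CAAAGGTCA the shares were 0.407% and 7.06%. The near-match at chr16:8674455-8674463 was close to the ABAT summits. In the 8 ASPC1 lists with the peak, the summit lay 1 to 28 bp from its middle. In the 4 Panc10.05 lists the distance was 3 to 45 bp, and in the 4 BxPC3 lists 6 to 100 bp. A match of letters is a description, not a site.

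**Figure D1:**
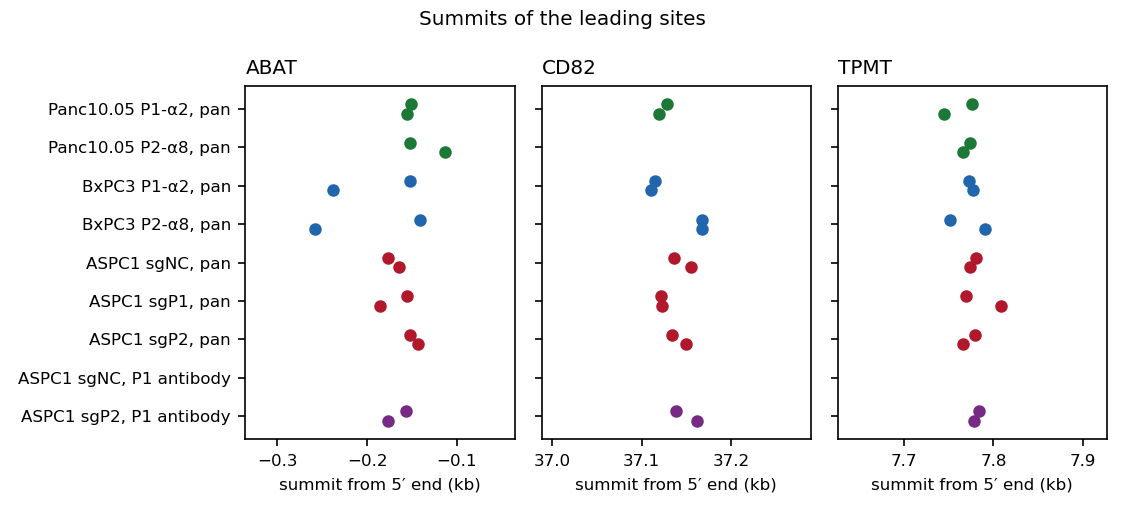
Summit of each leading-site peak by group, as distance from the 5′ end of the gene span (kb, downstream positive); 1 point per list, in green for Panc10.05, blue for BxPC3, red for the ASPC1 pan antibody and purple for the P1 antibody. At ABAT the 16 summits spread over 145 bp, with 2 BxPC3 lists farthest upstream; the 14 CD82 summits spread over 57 bp and the 16 TPMT summits over 63 bp.

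The summits of each leading site fell close together in all lines that had the peak. The 16 ABAT summits spread over 145 bp, the 14 CD82 summits over 57 bp and the 16 TPMT summits over 63 bp. Peaks of the leading sites were wider in ASPC1 with the pan antibody than in the induced lines. Over whole lists this was not so: median widths were 391 to 454 bp in ASPC1 with the pan antibody and 343 to 497 bp in the induced lines. At ABAT the ASPC1 widths were 963 to 1250 bp (median 993 bp), against 411 to 632 bp (median 485.5 bp) in Panc10.05 and BxPC3. At CD82 they were 799 to 1236 bp against 252 to 401 bp, and at TPMT 738 to 1008 bp against 329 to 706 bp. The cut-off on q differs between these lists in the same way, and the leading sites also stood at higher percentiles in the ASPC1 lists. The part of either in the width was not tested.

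With the P1 antibody, the 3 leading sites were among the strongest peaks of both sgP2 lists and had no peak in either sgNC list. These are the values that chose the genes. Fold enrichment in the sgP2 libraries was 33.5 and 29.6 at ABAT, 27.1 and 27.0 at CD82, and 26.4 and 23.4 at TPMT. In the same order of libraries, ABAT ranked 36 and 41 of 5200 and 3916 peaks, CD82 78 and 53, and TPMT 89 and 90. The sgNC lists held 697 and 260 peaks, and their nearest summits were 189 and 313 kb from the ABAT site, 8447 and 6818 kb from the CD82 site and 5796 and 11977 kb from the TPMT site. Members were ranked by mean percentile among 2259 regions found in both sgP2 lists and neither sgNC list. ABAT had 99.2, CD82 98.6 and TPMT 98.0; the next regions, nearest to PDE4D and LGSN, had 97.8 and 97.6 and were not taken.

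One more P1-antibody site lay at the ABAT locus, at chr16:8788470-8789192, 4261 bp past the 3′ end of the gene. Its fold enrichment was 8.69 and 11.6 in the sgP2 libraries, at the 66.4 and 80.7 percentile. It too had no sgNC peak. All 4 sites with a P1-antibody peak were thus in both sgP2 lists and neither sgNC list, as were 36.0% of all 6274 regions of these lists, and none had the reverse pattern, shown by 0.0638% of regions. Since the genes were chosen on this contrast, nothing is read from these counts.

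The pan antibody, which did not enter the choice, found the same 3 sites in every ASPC1 list, whichever guide the cells carried. At ABAT, fold enrichment was 55.8 and 47.4 in sgNC, 45.9 and 37.1 in sgP1, and 49.3 and 68.3 in sgP2 libraries. The peak ranked 16 to 100 from the top of these lists. At CD82, fold enrichment was 45.1 and 29.9 in sgNC, 29.6 and 42.9 in sgP1, and 45.1 and 58.9 in sgP2 libraries, with ranks of 31 to 292. TPMT had 69.7 and 40.8 in sgNC, 29.0 and 32.8 in sgP1, and 40.8 and 41.8 in sgP2 libraries, with ranks of 39 to 328. All 18 of these values, 6 at each site, lay at or above the 97.7 percentile of their list. At ABAT the percentiles of both sgP1 (99.6 and 99.3) and sgP2 (99.7 and 99.9) overlapped those of sgNC (99.6 and 99.8). At CD82 sgNC had 99.1 and 98.4, sgP1 97.9 and 99.6, and sgP2 99.5 and 99.8, so that sgP2 lay above sgNC and sgP1 overlapped it. At TPMT sgNC had 99.8 and 99.6, and both sgP1 (97.7 and 98.9) and sgP2 (99.3 and 99.2) lay below it. These lists differ in length, so no change is read from the order. The 2 further sgNC libraries with the P1 antibody thus lacked peaks at positions where both sgNC libraries with the pan antibody had some of their strongest.

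The 4 P1-antibody sites were all present in both sgP2 pan lists, as were 83.3% of the 6039 regions with a peak in any sgP2 P1-antibody list. All 4 were also in both sgNC pan lists, against 84.9% of those regions. The members' counts stand near these shares.

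In the induced lines the leading sites had peaks of more varied rank. ABAT and TPMT had a peak in all 8 Panc10.05 and BxPC3 lists, whereas CD82 had one in 6 of 8. ABAT and TPMT were therefore the 2 sites of 27 found in all 14 pan lists, beside 2.98% of all regions with a pan peak. Both were chosen as strong P1-antibody peaks in ASPC1 cells, so no excess over that share is read from this count. Percentiles within the induced lists ran from 55.0 to 97.0 at ABAT, 22.4 to 88.5 at CD82 and 37.5 to 92.4 at TPMT. The best rank of a leading site in these lists was 374, for ABAT in BxPC3 P2-α8 replicate 1.

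**Figure D2:**
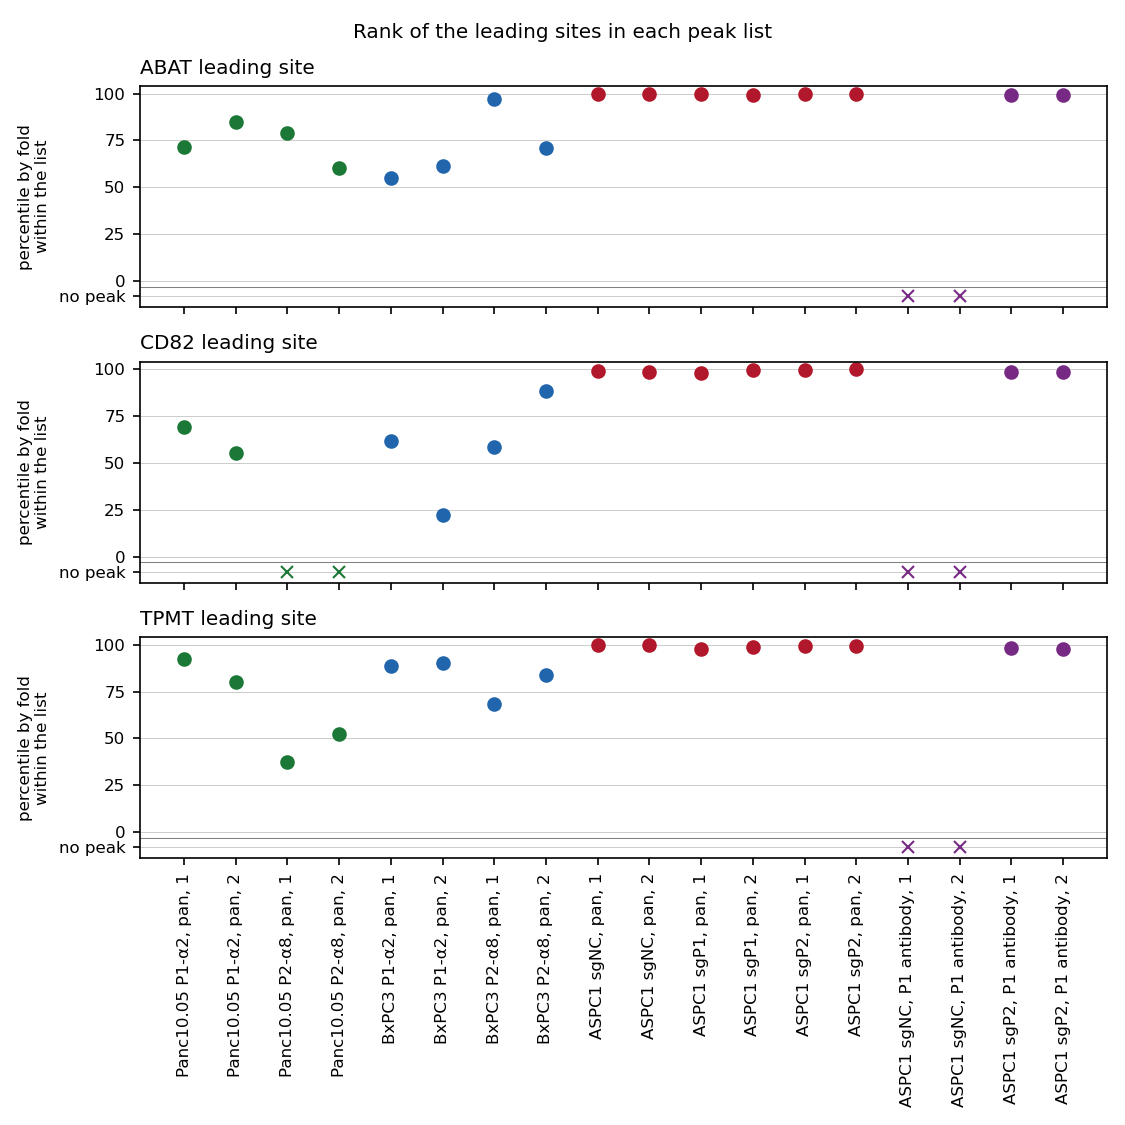
Percentile by fold enrichment (y axis, 100 is the strongest peak of the list) of the 3 leading sites in each of the 18 lists (x axis, group and replicate); crosses mark lists without a peak. The ASPC1 pan lists (red) sit at 97.7 or higher, the sgP2 P1-antibody lists (purple) at 97.7 to 99.3, and the Panc10.05 (green) and BxPC3 (blue) lists spread from 22.4 to 97.0.

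In Panc10.05, ABAT had fold enrichments of 18.7 and 29.5 with P1-α2 and 18.8 and 13.0 with P2-α8. TPMT had 33.7 and 25.8 with P1-α2 and 10.7 and 11.9 with P2-α8. CD82 had 17.9 and 15.8 with P1-α2 and no peak in either P2-α8 list, where the nearest summits were 10.5 kb away in both. To set these lists side by side, each was shortened to its 24828 strongest peaks by fold, the length of the shortest. ABAT then stood at percentiles of 71.6 and 79.2 with P1-α2 and 67.0 and 46.1 with P2-α8, and TPMT at 92.4 and 72.6 with P1-α2 and 1.57 and 35.4 with P2-α8. For both genes both P1-α2 percentiles were above both P2-α8 percentiles, as they were in 27.2% of the 13598 regions found in all 4 shortened lists. With 2 genes against that share, nothing particular to them is read from it.

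In BxPC3, the order of the isoforms depended on the site and on the list length. ABAT had fold enrichments of 12.1 and 11.4 with P1-α2 and 21.5 and 10.2 with P2-α8. CD82 had 13.2 and 7.75 with P1-α2 and 10.8 and 13.2 with P2-α8. TPMT had 21.4 and 18.6 with P1-α2 and 11.9 and 12.0 with P2-α8. Its percentiles in the full lists were 88.6 and 90.2 with P1-α2 and 68.5 and 83.5 with P2-α8, the same order as in Panc10.05. When each list was shortened to its 12681 strongest peaks by fold, neither ABAT nor CD82 was left in the P1-α2 lists, while both stayed in the P2-α8 lists, ABAT at 97.0 and 66.4 and CD82 at 58.4 and 86.7. TPMT stood at 62.4 and 73.9 with P1-α2 and 68.5 and 81.0 with P2-α8, and these groups overlapped. TPMT was thus outside the 19.4% of 4970 BxPC3 regions in all 4 shortened lists with both P1-α2 percentiles above. The loss of ABAT depended on the ranking. With lists shortened and ranked by −log10 p, ABAT stayed in both P1-α2 lists, at 48.5 and 41.4 against 96.2 and 71.3 with P2-α8, while CD82 was again left in the P2-α8 lists alone, at 67.0 and 76.4. TPMT then stood at 62.2 and 57.8 with P1-α2 and 65.0 and 67.5 with P2-α8, and the groups no longer overlapped. No share of all regions with both P2-α8 percentiles above is given for this ranking. Nothing particular to ABAT or TPMT is therefore read from that order. The P1-α2 lists were cut from 41808 and 33737 peaks, so weaker peaks of these lists are lost by construction.

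The sites at the loci, the leading ones included, were sorted by the lines with a peak. Of 27 sites, 15 had peaks in Panc10.05 or BxPC3 only, 5 in ASPC1 only and 7 in both. The ASPC1 lists go down to a −log10 q of 2.00, the induced lists only to 8.00. Of the ASPC1-only sites, chr16:8797850-8798496 (6.83 and 2.49), chr11:44565854-44566190 (5.81) and chr6:18080753-18081051 (4.22) stayed below 8.00. The others, chr11:44593246-44593679 (19.2) and chr6:18148202-18148867 (4.23 to 20.5), passed it in at least 1 list. The share of the first kind, 15 of 27, stands beside 64.4% of all regions with a pan peak. It is near that share, so nothing particular to these loci is read from it. Of the 12 sites with an ASPC1 pan peak, 5 were in all 6 of those lists, beside 26.8% of ASPC1 regions. These 5 were the 3 leading sites, the site past the 3′ end of ABAT and a site inside CD82. The leading sites were chosen as strong P1-antibody peaks in ASPC1 cells, so no excess over the 26.8% is read from this count. Only 4 sites were seen in 1 list alone.

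**Figure D3:**
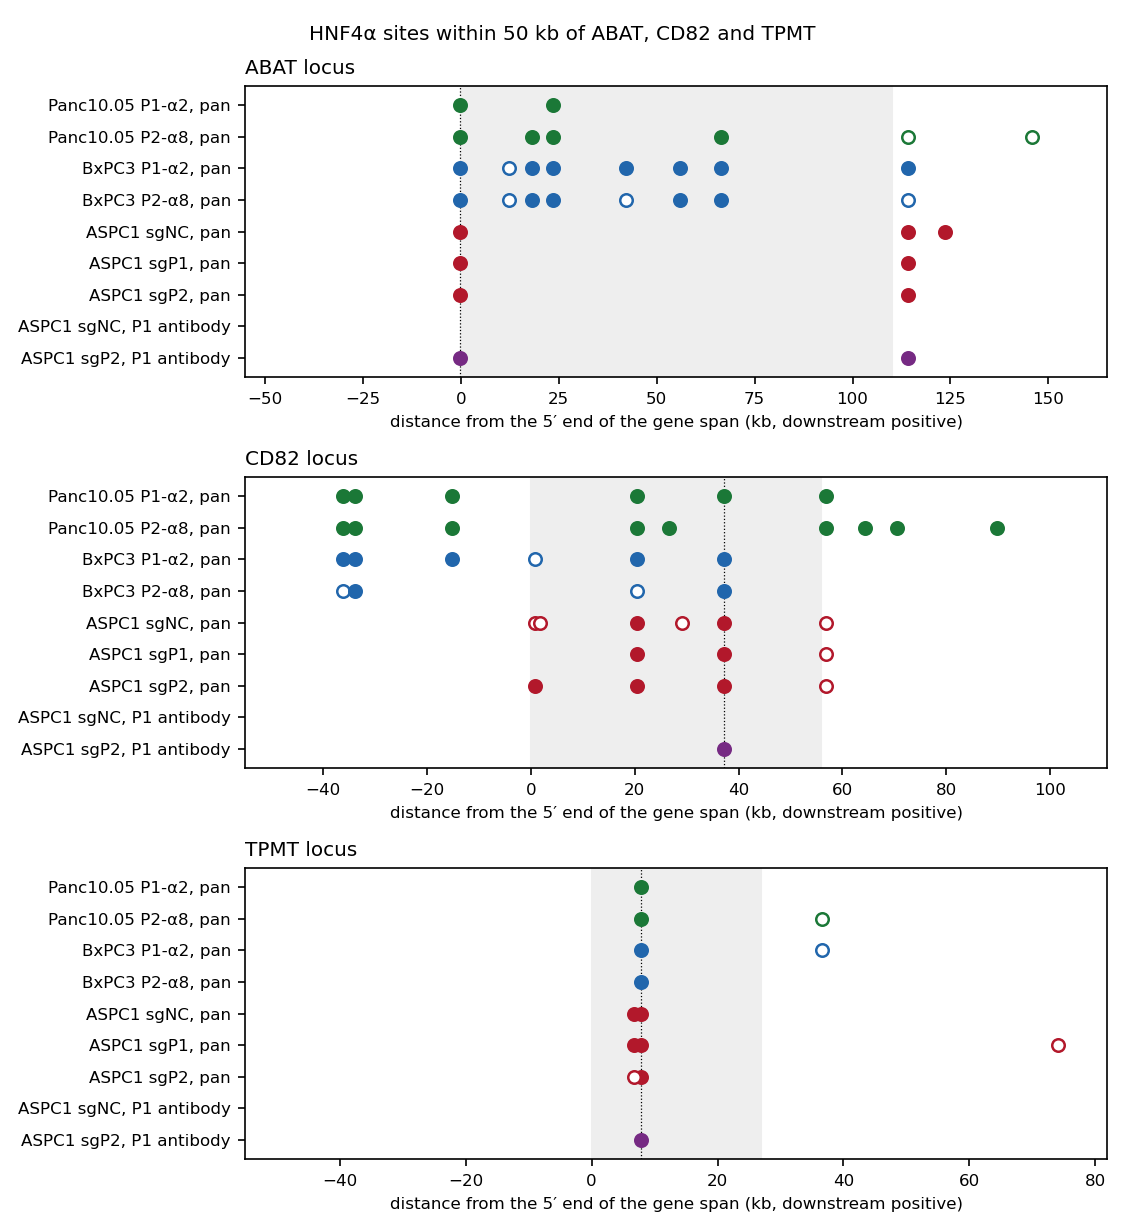
Map of the 27 sites by distance of the median summit from the 5′ end of each gene (x axis, kb, downstream positive) and by group (y axis); filled points are sites in both lists of a group, open points in 1 list, the grey band is the gene span and the dotted line the leading site. The inside of ABAT holds sites in Panc10.05 and BxPC3 and none in ASPC1, and the sgNC P1-antibody row is empty at all 3 loci.

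Inside the span of ABAT, 6 sites were bound in the induced lines and none in ASPC1. The most regular, chr16:8697725-8698617, 23.5 kb into the gene, was in all 8 induced lists. Its percentiles were 83.3 and 89.7 in Panc10.05 P1-α2, 63.8 and 74.5 in Panc10.05 P2-α8, 99.3 and 77.8 in BxPC3 P1-α2, and 96.1 and 93.2 in BxPC3 P2-α8. It outranked the promoter site in 6 of these 8 lists, the exceptions being replicate 1 of Panc10.05 P2-α8 and of BxPC3 P2-α8. Sites at chr16:8692479-8693087 and chr16:8740757-8741259 were in both lists of Panc10.05 P2-α8 and of both BxPC3 groups, and in neither Panc10.05 P1-α2 list. Their percentiles ran from 10.7 to 80.0 and from 14.5 to 84.4. A site at chr16:8730221-8730906 was in all 4 BxPC3 lists and no other, with folds of 29.2 and 26.3 in the replicate 1 libraries of P1-α2 and P2-α8 and 5.52 and 7.22 in the replicate 2 libraries.

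The site past the 3′ end of ABAT, chr16:8788470-8789192, was in 12 lists. It was found in all 6 ASPC1 pan lists at percentiles of 79.7 to 92.6, in both BxPC3 P1-α2 lists at 61.1 and 90.3, and in 1 list each of BxPC3 P2-α8 and Panc10.05 P2-α8. Panc10.05 P1-α2 had no peak there. Farther on, chr16:8797850-8798496 overlapped the promoter windows of the neighbours TMEM186 and PMM2, the latter a phosphomannomutase of protein glycosylation. It was found in both sgNC pan lists alone, with fold enrichments of 3.77 and 2.74 at the 6.60 and 0.245 percentile, near the bottom of each list.

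CD82 had the most sites, and those upstream of the gene were bound in the induced lines alone. The site at chr11:44530175-44531314, at -33.8 kb from the 5′ end, was in all 8 induced lists and no ASPC1 list. Its percentiles were 85.3 and 73.3 in Panc10.05 P1-α2, 92.9 and 95.8 in Panc10.05 P2-α8, 96.5 and 35.8 in BxPC3 P1-α2, and 20.8 and 65.7 in BxPC3 P2-α8. With the ABAT site 23.5 kb into the gene, it was 1 of 2 sites of this pattern, beside 2.45% of all regions with a pan peak. A second upstream site, chr11:44527753-44528755, was in 7 induced lists, with percentiles of 85.2 to 99.0 in Panc10.05 and 59.2 to 80.8 in BxPC3. The third, chr11:44548922-44549685, was in all 4 Panc10.05 lists and both BxPC3 P1-α2 lists, at percentiles of 61.9 to 82.9.

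Inside CD82, chr11:44584403-44585586, 20.4 kb into the gene, was in 13 of the 14 pan lists and lacked a peak in BxPC3 P2-α8 replicate 2. Its percentiles ran from 31.8 to 94.1, and it was in neither sgP2 P1-antibody list. In Panc10.05 P2-α8, where the leading CD82 site had no peak, this one stood at 65.0 and 88.4. Just past the 3′ end, chr11:44620788-44621552 was at 97.0 and 98.8 in Panc10.05 P2-α8, at 85.5 and 77.8 in Panc10.05 P1-α2, in 1 list of each ASPC1 guide, and in no BxPC3 list. The Panc10.05 P2-α8 lists therefore had strong peaks at the CD82 locus, though none at the leading site.

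TPMT had the fewest sites. Beside the leading site, chr6:18148202-18148867 lay 6.70 kb into the gene and was in 5 of 6 ASPC1 pan lists and no induced list. Its fold enrichment was 8.79 and 6.44 in sgNC, 5.10 and 5.25 in sgP1, and 3.92 in sgP2 replicate 2, and it ranked between the 9.29 and 64.9 percentile. Its −log10 q was 20.5 and 8.92 in sgNC, 5.64 and 5.84 in sgP1, and 4.23 in sgP2 replicate 2. The induced lists hold no peak below 8.00. The other 2 sites were downstream of the gene. One, chr6:18118315-18118732, was nearest to NHLRC1, a ubiquitin ligase gene, and was in 2 induced lists. The other was in 1 ASPC1 list, at a −log10 q of 4.22. The outermost summits inside the window of 50 kb were 35.8, 36.3 and 47.3 kb from ABAT, CD82 and TPMT. The first outside were 65.8, 51.9 and 71.3 kb away. A slightly wider window would thus add a site at CD82, and a slightly narrower one would drop a site at TPMT.

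In Panc10.05, 18 sites had a peak, and 8 were in all 4 lists, beside 18736 of the 49247 regions of these lists. The number of peaks at the 3 loci was 9 and 9 with P1-α2 and 16 and 15 with P2-α8. The means were 9 ± 0 and 15.5 ± 0.707 peaks (SD, n = 2), a difference of -6.5 peaks for P1-α2 minus P2-α8, and the groups did not overlap. The two-sided exact permutation test gave p = 0.333, the smallest that 2 libraries against 2 allow. The difference was -4 with lists of equal length by fold, -3 with equal length by −log10 p and -4 within 10 kb of the genes. ABAT had 2 peaks in each P1-α2 list and 5 in each P2-α8 list, and CD82 had 6 and 9. Sites in both lists of one isoform and neither of the other numbered 1 for P1-α2, the CD82 leading site, beside 3.64% of the 49247 regions of these lists. For P2-α8 they numbered 6 of 18, beside 10.9% of regions. These 6 were the ABAT sites 18.2 and 66.4 kb into the gene, a CD82 site 26.6 kb into the gene at percentiles of 39.3 and 15.6, and 3 sites downstream of CD82 at percentiles of 0.858 to 77.6. At equal list length, by fold or by −log10 p, these counts were 1 for P1-α2 and 2 for P2-α8, with no share over all regions given at that length.

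In BxPC3, 16 sites had a peak, and 8 were in all 4 lists, beside 8648 of the 47225 regions of these lists. The 3 leading sites, chosen as strong peaks, are among the 8, so no excess is read from this count. The number of peaks was 16 and 13 with P1-α2 and 12 and 9 with P2-α8. The means were 14.5 ± 2.12 and 10.5 ± 2.12 peaks (SD, n = 2), a difference of 4 peaks, with p = 0.333 in the two-sided exact permutation test, again the smallest possible. The P1-α2 lists were also longer, 41808 and 33737 peaks against 12681 and 14666. With lists of equal length by fold the difference turned to -4.5 peaks (exact permutation p = 0.333), and by −log10 p to -2 (exact permutation p = 0.667). One site was in both P1-α2 lists and neither P2-α8 list, the CD82 site at -15.2 kb from the 5′ end, beside 28.2% of the 47225 regions. The reverse pattern was shown by 0 sites, beside 0.129% of regions. At equal length it was shown by 3 sites with ranking by fold and 2 by −log10 p. The 0.129% is for the full lists and no share is given at equal length. The cut removes the weaker P1-α2 peaks, so nothing is read from these 2 counts. The count for P1-α2 was 4 without P2-α8 replicate 1, 3 without P1-α2 replicate 2 and 2 without P2-α8 replicate 2.

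The isoform difference itself differed between the lines by -10.5 peaks, Panc10.05 minus BxPC3. The two-sided exact permutation test within lines gave p = 0.0556, the smallest that its 36 regroupings allow. At equal list lengths by fold this value was 0.5 (p = 1, same exact permutation test), and by −log10 p it was -1 (p = 0.889). The doses of doxycycline differed between the isoforms in Panc10.05 and were equal in BxPC3, and the part of dose was not tested.

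**Figure D4:**
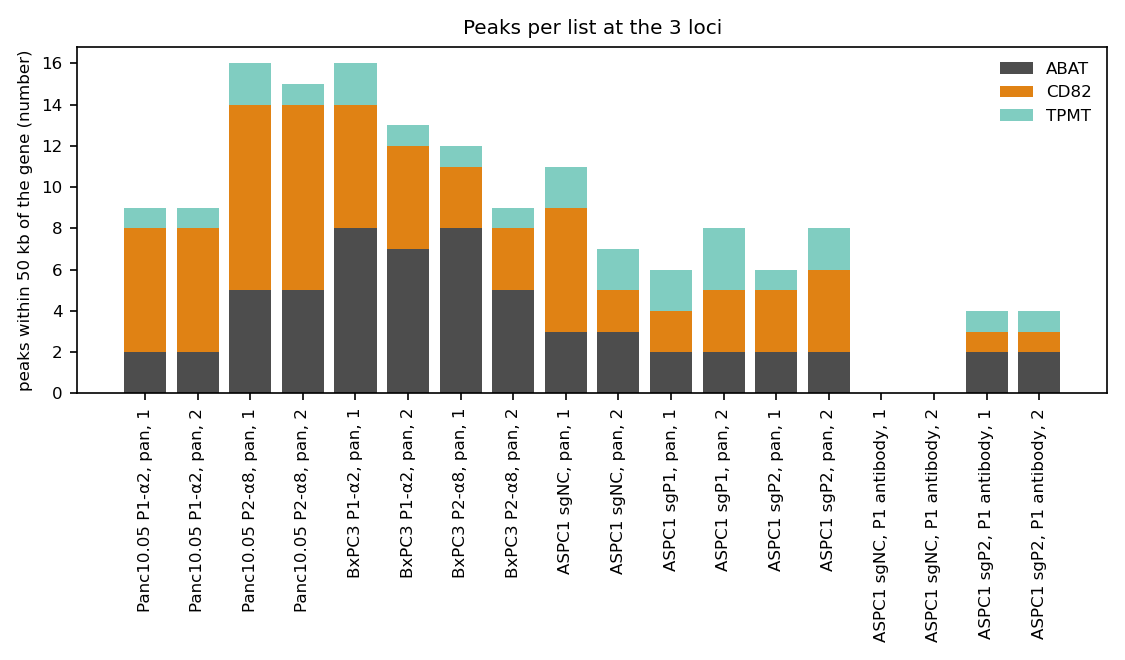
Number of peaks within 50 kb of ABAT, CD82 and TPMT (y axis, stacked) in each of the 18 lists (x axis, group and replicate). Panc10.05 P2-α8 has 16 and 15 peaks against 9 and 9 for P1-α2, the ASPC1 pan lists have 6 to 11, and the sgNC P1-antibody lists have 0 against 4 and 4 for sgP2.

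With either promoter repressed in ASPC1, 5 of the 12 sites of the pan antibody had a peak in every list, the 3 leading sites among them. The number of peaks was 11 and 7 with sgNC, 6 and 8 with sgP1, and 6 and 8 with sgP2. The means were 9 ± 2.83, 7 ± 1.41 and 7 ± 1.41 peaks (SD, n = 2). Both guides differed from sgNC by -2 peaks, less than the spread, with p = 0.667 in two-sided exact permutation tests, and from each other by 0 (p = 1). The comparisons of sgP1 and of sgP2 with sgNC share the sgNC libraries. With 2 libraries a group, these tests do not show that the guides act alike. Leaving out 1 library moved each difference from sgNC between -4 and 0, at -4 without sgNC replicate 2 and 0 without sgNC replicate 1, the longest of these lists.

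No site was in both sgP1 lists and neither sgNC list (0.409% of 26867 regions), or in both sgP2 lists and neither sgNC list (0.407% of 27043 regions). One was absent from both sgP1 lists, beside 8.97% of regions, and the same one from both sgP2 lists, beside 7.20%: the weak site at the TMEM186 and PMM2 promoters. Without sgNC replicate 2, the sites counted for sgNC rose to 4 against sgP1 and 3 against sgP2. Without sgP2 replicate 2, that count against sgP2 was 2. The count over sgNC was 1 for sgP1 without sgP1 replicate 1, and 1 for sgP2 without sgNC replicate 1. Between the guides, 0 sites were in both sgP1 lists alone, beside 2.75% of 20473 regions. That count became 1 without sgP1 replicate 1 or sgP2 replicate 2. In both sgP2 lists alone there was 1, beside 4.32%, the site at the 5′ end of CD82, chr11:44564405-44565283. Its percentiles were 52.0 and 34.0 with sgP2, and it was also in sgNC replicate 1 at 68.3. It did not overlap the CD82 promoter window of the RefSeq table.

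Other genes of the same pathways were read from lists of their known members. The GABA list, as reported here, has 8 genes: ABAT, ALDH5A1 and AKR7A2 (succinic semialdehyde metabolism), GAD1 and GAD2 (GABA synthesis), GLUD1 (glutamate metabolism) and the transporters SLC6A12 and SLC6A13. A peak within 50 kb in both lists was found in Panc10.05 for all 8 with P1-α2 and with P2-α8, and in BxPC3 for 6 with either isoform. In ASPC1 with the pan antibody it was 7 with each guide. With the P1 antibody, 1 of 8, AKR7A2, had one in sgNC and 3 in sgP2: AKR7A2, SLC6A12 and ABAT. Within 10 kb, ABAT alone of the 8 kept a sgP2 P1-antibody peak in both lists, and none a sgNC one. ABAT was chosen on this contrast and no share of all genes within 10 kb is given, so nothing is read from its place.

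The tetraspanin list of 11 genes gave 8 in each of the 7 pan groups. In the P1-antibody lists it gave 1 with sgNC, TSPAN1, and 6 with sgP2: TSPAN1, TSPAN15, CD151, CD82, CD63 and TSPAN3. Within 10 kb all 6 kept a sgP2 P1-antibody peak in both lists, and TSPAN1 its sgNC one. TSPAN8, a tetraspanin of digestive epithelium, had peaks in every pan list and in no P1-antibody list. The thiopurine list, as reported here, has 9 genes: TPMT, HPRT1 (which activates thiopurines), IMPDH1, IMPDH2, GMPS, XDH, AOX1, ITPA and the exporter ABCC4. It gave 8, 8 and 8 in Panc10.05 P1-α2, Panc10.05 P2-α8 and BxPC3 P1-α2, and 4 in BxPC3 P2-α8: XDH, TPMT, ABCC4 and HPRT1. In ASPC1 with the pan antibody it gave 6 with sgNC, 3 with sgP1 (TPMT, ITPA and HPRT1) and 4 with sgP2 (the same 3 and IMPDH2). With the P1 antibody it gave 0 with sgNC and 2 with sgP2 (TPMT and ITPA). Within 10 kb TPMT alone kept a sgP2 one, and as TPMT was chosen on this contrast, nothing is read from that. XDH, the oxidase that degrades thiopurines, had peaks in all 8 induced lists and no ASPC1 list.

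Beside these counts stand the shares of all 20037 protein-coding genes with a peak within 50 kb in both lists. They were 74.5% and 79.5% in Panc10.05 with P1-α2 and P2-α8, and 76.6% and 45.4% in BxPC3. In ASPC1 they were 58.5%, 50.6% and 52.0% with sgNC, sgP1 and sgP2 for the pan antibody, and 2.31% and 23.7% with sgNC and sgP2 for the P1 antibody. ABAT, CD82 and TPMT count in their own lists, where the choice of the genes fixed their P1-antibody entries.

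The regions most like each leading site were taken by the mean absolute difference of percentile over the 18 lists, with an absent peak set to 0. For ABAT these lay in ARHGAP27, DNAH12 and XYLT1, at 7.77, 7.84 and 7.91 percentile points, against a median of 71.2 over all regions. For CD82 they were nearest to ZNF706 and LIG4 and inside EPS8L3, at 10.3, 11.0 and 11.8 points (median 62.4). TPMT was closest to regions in CLRN3 and near NOX4 and LTV1, at 4.00, 4.75 and 5.71 points (median 72.0). The presence pattern of ABAT and TPMT over the 18 lists, a peak in all but the sgNC P1-antibody lists, was shared by 1008 other regions. That of CD82, absent also from both Panc10.05 P2-α8 lists, was shared by 17.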

How the data were processed

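Peak lists of 18 immunoprecipitated libraries were used, 1 list per library. The submitters' processing notes name Bowtie2 2.2.9, MACS2 2.2.7 and the builds hg38 and mm10, with no role for each; the lists hold peaks on chromosomes 20 to 22, which mouse lacks. The control used for peak calling and the read depth are not given in the sources used here. In the deposited lists the fold enrichment is a linear ratio, both the p-value and its adjusted q-value stand as −log10, and the score is a whole number.

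Groups came from the labels' cell line, genotype and antibody. For BxPC3 P2-α8 the title names α8 with P1; the genotype label was used. Peaks overlapping by at least 1 bp were merged (pandas 2.3.3; checked against bedtools 2.31.1 on simulated peaks). Gene spans and names came from RefSeq GRCh38.p14. Numbers of peaks were compared by two-sided exact permutation tests over libraries. Full values were given for leading sites, sites in both lists of at least 3 groups and group-specific sites; 3 most similar regions were named per leading site. 1 gene of the GABA list and 1 of the thiopurine list are not reported here, and counts leave them out. The genes and lists were chosen with earlier results of these data known. Alternatives covered the cut-off on −log10 q, list length, overlap rule, window, ranking by p-value and leaving out each library. No count-based interval is given because depth is unknown.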

Additional observations from a re-analysis of the deposited data

Results flagged for a closer look

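The isoform difference in the number of peaks at the 3 loci was of opposite sign in the 2 induced lines, which put it here. It was -6.5 peaks in Panc10.05 and 4 in BxPC3 (P1-α2 minus P2-α8), so that the lines differed by -10.5 peaks. The exact permutation p of 0.0556 is the smallest that 36 regroupings allow, and at equal list length the difference was 0.5 peaks by fold and -1 by −log10 p.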

How the results depend on the processing

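The Panc10.05 difference of -6.5 peaks stayed negative under every alternative run and shrank to -4 at equal length by fold, -3 by −log10 p and -4 within 10 kb. The others did not all keep their sign. In BxPC3 the P1-α2 minus P2-α8 difference of 4 turned to -4.5 with lists of equal length by fold and -2 by −log10 p (exact permutation p = 0.333 and 0.667), and the difference between the lines turned from -10.5 to 0.5 by fold and was -1 by −log10 p. The sgP1 minus sgP2 difference of 0 ranged from -1.5 with −log10 q of at least 8 to 0.5 at equal length. The sgP2 minus sgNC difference with the P1 antibody was 3 instead of 4 at equal length by either ranking. Without each library in turn, the Panc10.05 difference was -7 to -6, the BxPC3 one 2.5 to 5.5, those of sgP1 and sgP2 against sgNC -4 to 0, -1 to 1 between these guides, 4 to 4 with the P1 antibody and -12 to -9 between the lines.

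Counts of group-specific sites were small and moved more. The shares of group-specific regions given above were taken on the full lists only. With −log10 q of at least 20, the 6 sites of Panc10.05 P2-α8 became 3, and the 1 of sgNC over sgP1, of sgNC over sgP2 and of sgP2 over sgP1 became 0. At equal length by fold, Panc10.05 P2-α8 had 2, BxPC3 P1-α2 0, BxPC3 P2-α8 3, sgNC over sgP1 0 and sgP1 over sgP2 1; by −log10 p, chosen after seeing the data, these were 2, 0, 2, 0 and 1. A reciprocal overlap of 50% was counted as the mean of both lists of a group. It gave 0.5 each for BxPC3 P2-α8, sgP1 over sgNC, sgNC over sgP1 and sgNC over sgP2, and 1 for sgP2 over sgNC. With summits within 100 bp, Panc10.05 P2-α8 had 4 and sgNC over either guide had 0.5. Leaving out 1 library, an alternative added after seeing the data, gave 1 to 4 for BxPC3 P1-α2 and for sgNC over sgP1, 1 to 3 for sgNC over sgP2, 6 to 8 for Panc10.05 P2-α8, and 0 to 1 for sgP1 over sgNC, sgP2 over sgNC and sgP1 over sgP2. Ranking by −log10 p in place of fold moved the leading sites by up to 2.17 percentile points in ASPC1 and 29.4 in the induced lines.

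Same-numbered libraries did not deviate together (correlations of -0.0674 to 0.0680), so they were treated as unpaired. Under a replicate block the differences were the same, -6.5 in Panc10.05 and 4 in BxPC3 (p = 0.5 for either, exact permutation within pairs). No p-value could pass 0.05 with or without the block, so this alternative tests no call. Sequencing depth is unknown, so the absence of a peak is no measure of absent binding.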
